A study of Mus musculus with 6 samples.

Results

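The oligoadenylate synthetase (OAS) genes described here are 8 mouse genes of the antiviral response, Oas1a, Oas1b, Oas1c, Oas1g, Oas2, Oas3, Oasl1 and Oasl2, and were chosen by symbol. Rows were found for 7 of the 8 among 34245 genes with RNA-seq values, and Oas1b was not analysed here. Their RNA was measured in 3 peripheral T-cell lymphomas (PTCL) from lymph nodes of terminally sick FVB mice. All 3 mice carried a conventional knockout of 1 allele of Dnmt3b (Dnmt3b+/-), a DNA methyltransferase gene, and the age of each mouse is not given in the sources used here. No control library was analysed here, so the values describe how OAS RNA varied among tumors of 1 genotype, and no test between groups could be made. Levels are given as FPKM, fragments per kilobase of exon, scaled to library depth. The libraries of tumors 1, 2 and 3 had scales of 30726570, 18969988 and 20770928 reads, and the OAS genes held 7382, 18667 and 8821 reads in these tumors. All 95% intervals below come from such recovered reads and cover counting error only. The targeted gene Dnmt3b had 0.975, 1.55 and 1.25 FPKM in tumors 1, 2 and 3, values that include all exons and therefore do not separate its alleles. All 12 genes of a T cell list were above 1 FPKM in every tumor, compared with 28.4% of all 34197 symbols. Among them was Cd3e with 56.4, 78.1 and 65.3 FPKM. These levels show T cell RNA in every tumor, but they do not separate lymphoma cells from other T cells of the lymph node.

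OAS proteins bind double-stranded RNA, as viruses and some cellular transcripts form it, and then link ATP into short chains of adenosine called 2-5A. These chains are a second messenger of the antiviral response. OAS genes are classical interferon targets, transcribed through a complex with Stat2 and Irf9 bound to a promoter element known as the interferon-stimulated response element (ISRE).

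All 7 genes lie on mouse chromosome 5 (mm10). Oasl2 (chr5:114896936-114912234) and Oasl1 (chr5:114923240-114937915) are neighbours on the plus strand. The other 5 form a cluster on the minus strand in the order Oas2 (chr5:120730333-120749853), Oas3 (chr5:120753098-120777661), Oas1c (chr5:120800194-120812514), Oas1g (chr5:120876142-120887613) and Oas1a (chr5:120896256-120907521). RefSeq promoters of 300 bases (250 before and 50 after the start, GRCm38.p6, the assembly of mm10) were at hand for 6 of the 8 OAS genes, all but Oas1b and Oas2. The core of the ISRE was searched on both strands. It occurred in 4 of these 6 promoters, those of Oas1a, Oas1c, Oas1g and Oas3, and in 3.44% of all 32851 promoters. The windows of 60 bases before the start that hold the matches are given below because interferon acts on OAS genes through this element. The promoters of Oasl1 and Oasl2, genes also highest in tumor 2, held no match. Each is read 5′ to 3′ on the minus strand, the strand of its gene, and capitals mark the bases covered by the motif in either direction.
Oas3: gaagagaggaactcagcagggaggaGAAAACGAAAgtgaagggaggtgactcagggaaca
Oas1c: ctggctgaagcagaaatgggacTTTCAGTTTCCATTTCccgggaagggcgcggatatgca
Oas1g: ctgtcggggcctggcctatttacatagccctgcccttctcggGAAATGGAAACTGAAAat
Oas1a: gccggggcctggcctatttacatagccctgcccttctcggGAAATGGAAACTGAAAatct
The windows lie at chr5:120777700-120777759 (Oas3), chr5:120812591-120812650 (Oas1c), chr5:120887614-120887673 (Oas1g) and chr5:120907526-120907585 (Oas1a), upstream of the transcripts. Oas1a and Oas1g shared the same 16 motif bases, made of 2 overlapping matches, within a run of 56 identical bases. In Oas1c, 2 overlapping matches lay in the opposite direction. A match is a description of letters, and no binding was measured.

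Oas3 and Oas2, synthetases built from OAS units in tandem, were among the most abundant OAS transcripts. Oas3 had 16.2, 64.5 and 30.0 FPKM (tumors 1, 2 and 3; mean 36.9 ± 24.9, SD, n = 3). It was the most abundant OAS gene in all 3 tumors and held 32.0%, 28.2% and 31.5% of their summed OAS level. Oas2 had 10.7, 35.8 and 19.9 FPKM, with a mean of 22.1 ± 12.7 (SD, n = 3). Both were therefore highest in tumor 2 and lowest in tumor 1.

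Of the genes with a single OAS unit, Oas1a and Oas1g encode active synthetases. Oas1a had 8.36, 56.4 and 22.3 FPKM in tumors 1, 2 and 3, with a mean of 29.0 ± 24.7 (SD, n = 3). Oas1g had 3.66, 28.9 and 6.91 FPKM, with a mean of 13.2 ± 13.8 (SD, n = 3). Tumor 2 again stood above the others. Oas1c, which belongs to the Oas1 group that is not known for synthetase activity, had 4.28, 6.73 and 6.65 FPKM, with a mean of 5.88 ± 1.39 (SD, n = 3). Its levels in tumors 2 and 3 had overlapping 95% intervals, with upper bounds of 7.53 and 7.40 FPKM, so that only tumor 1 stood apart. Oas1c varied least of the 7, with a coefficient of variation of 23.7%.

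The OAS-like genes carry an OAS unit joined to ubiquitin-like domains. Oasl2, which retains synthetase activity, had 6.52, 21.8 and 6.73 FPKM, with a mean of 11.7 ± 8.78 (SD, n = 3). Tumors 1 and 3 were alike for this gene, at 6.17 to 6.89 and 6.30 to 7.19 FPKM (95% intervals). Oasl1, known as an inhibitor of Irf7 translation, had 0.849, 14.9 and 2.77 FPKM, with a mean of 6.18 ± 7.64 (SD, n = 3). It varied most, with a coefficient of variation of 123.5%, and its level in tumor 1 rested on 68 reads, the fewest of any OAS gene. Its share of the summed OAS level was 1.68%, 6.52% and 2.91% in tumors 1, 2 and 3, whereas that of Oas1c was 8.47%, 2.94% and 6.98%.

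**Figure D1:**
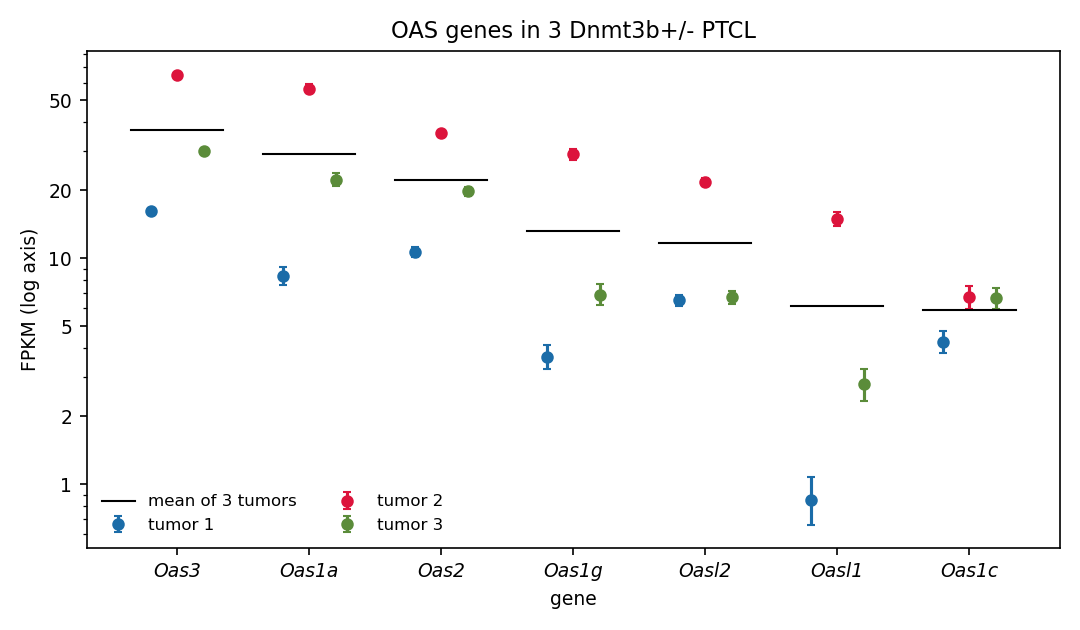
FPKM (log axis) of the 7 OAS genes in each tumor, with points for tumors, error bars for exact Poisson 95% intervals on the reads and black lines for the means of 3 tumors. Tumor 2 lies above the other tumors for Oas3, Oas1a, Oas2, Oas1g, Oasl2 and Oasl1 and overlaps tumor 3 for Oas1c.

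By mean level the order was Oas3, Oas1a, Oas2, Oas1g, Oasl2, Oasl1 and Oas1c. For each pair of neighbours in this order, the range over the 3 tumors of the higher gene overlapped that of the next. Within tumors, Oas3 exceeded Oas1a in 3 of 3, and Oas1a exceeded Oas2 in 2 of 3. The means rested on tumor 2 to a large extent. Without it they were 23.1 FPKM for Oas3, 15.3 for Oas1a, 15.3 for Oas2, 5.29 for Oas1g, 6.63 for Oasl2, 1.81 for Oasl1 and 5.46 for Oas1c. Of the 7 genes, 6 were above 1 FPKM in every tumor, all but Oasl1 in tumor 1, compared with 28.4% of all 34197 symbols. The other Oas1 paralogs of the cluster were close to silent. Oas1f had no read in any tumor, which allows up to 0.0660, 0.107 and 0.0976 FPKM, and Oas1d, Oas1e and Oas1h had at most 4 reads in a tumor.

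All 7 OAS genes had their highest level in tumor 2, as did 33.7% of the 11190 genes with a mean of at least 1 FPKM (21.4 to 37.2% under the other scalings), a filter that all 7 passed. All 7 also followed the order tumor 2, tumor 3, tumor 1, compared with 16.8% of those genes. The order was close to a tie for Oas1c between tumors 2 and 3, where it turned under median-of-ratios scaling. It was also close to a tie for Oasl2 between tumors 3 and 1, where it turned when FPKM were rescaled to a common sum or to the CD3 genes. The highest tumor was at least 2-fold above the next for 5 of 7 OAS genes, compared with 12.9% of genes, and in all 5 it was tumor 2, compared with 5.54%. Without tumor 2 this count was 2, Oas1a and Oasl1, and with a threshold of 3-fold it was 3. No share of all genes was taken at these settings, so these counts are not compared with other genes. Summed over the 7 genes, tumors 1, 2 and 3 had 50.5, 229.2 and 95.2 FPKM, so that tumor 2 had 4.54 times the level of tumor 1 and 2.41 times that of tumor 3.

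The size of the difference was unequal among the genes. Tumor 2 was at least 2-fold above tumor 1 for 6 of 7 OAS genes, compared with 10.1% of genes, and at least 2-fold above tumor 3 for 5 of 7, compared with 11.3%. The FPKM ratio of tumor 2 to tumor 1 was highest for Oasl1, at 17.6 (95% interval 13.7 to 22.9). It was 7.91 for Oas1g (6.93 to 9.07) and 6.75 for Oas1a (6.11 to 7.47). For Oas3 it was 3.99 (3.84 to 4.15), and Oas2 and Oasl2 had 3.36 and 3.35. Oas1c had the lowest ratio, 1.57 (1.34 to 1.85). Thus the intervals of Oasl1, of Oas1a and Oas1g, of Oas3 and of Oas1c did not touch each other. Against tumor 3, the ratio ran from 1.01 for Oas1c (0.864 to 1.19) to 5.39 for Oasl1 (4.52 to 6.47). The median log2 ratio over the 7 genes was 2.00 for tumor 2 to tumor 1 and 1.34 for tumor 2 to tumor 3, where the medians over all 11190 genes were -0.18 and 0.06. Tumors 1 and 3 also differed, with the ratio of tumor 3 to tumor 1 from 1.03 for Oasl2 (0.946 to 1.13), which fell below equal levels under rescaling and the CD3 scaling, to 3.26 for Oasl1 (2.43 to 4.41).

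**Figure D2:**
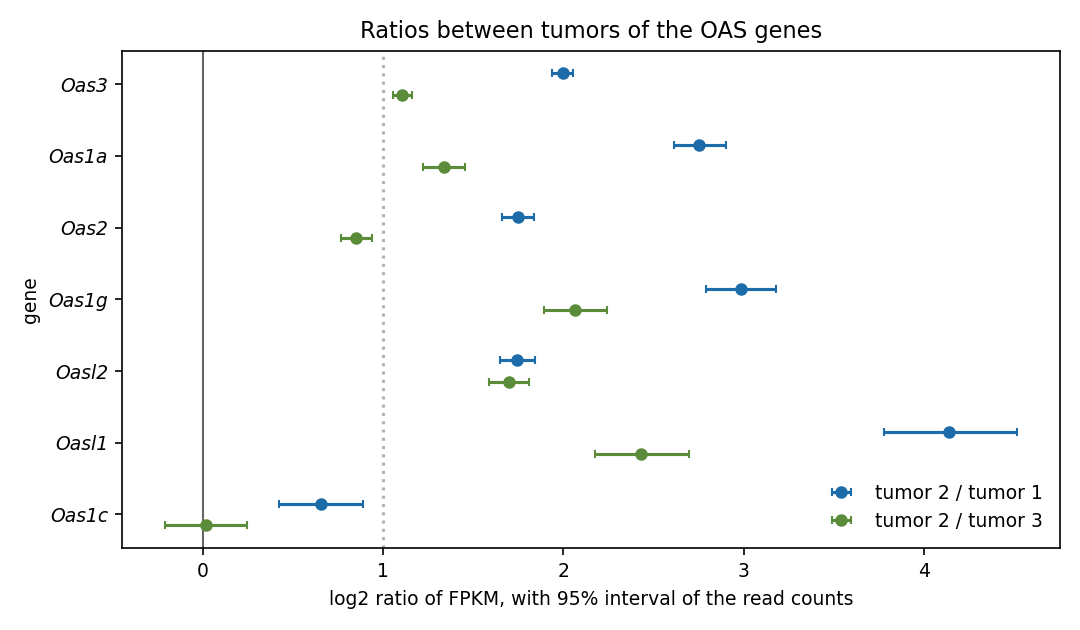
Log2 ratio of FPKM in tumor 2 to tumor 1 (blue) and to tumor 3 (green) for each OAS gene, with exact binomial 95% intervals on the reads; the solid line marks equal levels and the dotted line a 2-fold difference. Oasl1 has the largest ratios, 17.6 and 5.39, and the ratio of Oas1c to tumor 3 spans equal levels.

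Oas1a and Oas1g share long stretches of sequence. Their coding sequences were identical at 96.7% of 1101 aligned bases, and the other 20 pairs of OAS genes at 62.7 to 76.5%. Of the stretches of 150 bases, the read length, in Oas1a transcripts, 32.4% (563 of 1736) also occurred in Oas1g, which is 24.1% of those of Oas1g. Reads from such stretches match both genes, and with a mapping quality of at least 50 required they may have been left out, so that the levels of both genes could be too low. No such stretch of Oas2, Oas3, Oasl1 or Oasl2 occurred in another gene's transcripts. Oas1c shared 227 exon bases (9.44%) with Gm43069 on the opposite strand, and Oasl1 shared 38 (1.46%) with Gm13822. Whether the counting used strand is not given in the sources used here, so reads of Oas1c and Gm43069 could be mixed there. Gm43069 had 1.67, 2.27 and 1.91 FPKM. The sequences compared are those of the mm10 reference, not of FVB mice.

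**Figure D3:**
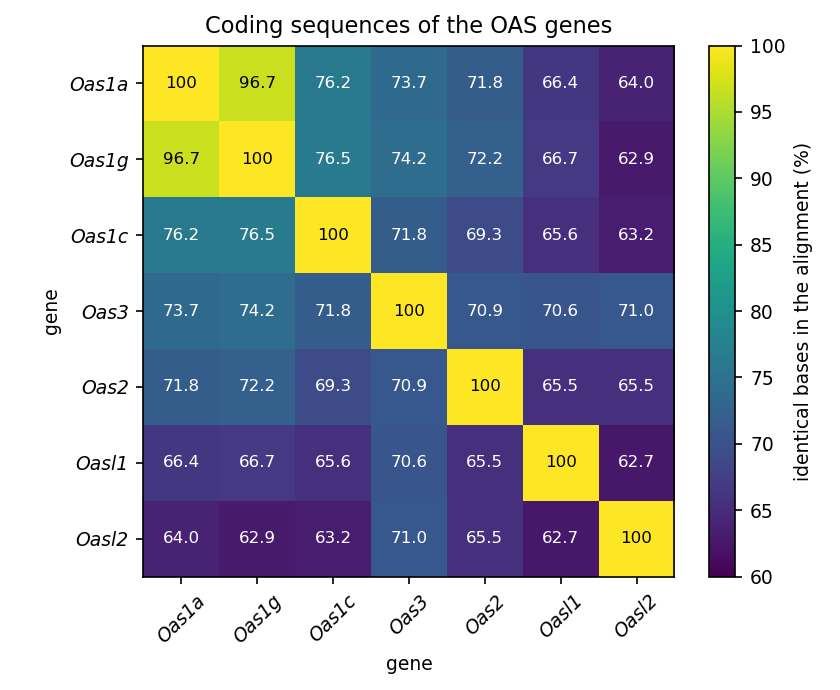
Identical bases (%) in pairwise alignments of the coding sequences of the 7 OAS genes, with the color scale from 60 to 100%. Oas1a and Oas1g stand apart as a pair at 96.7%.

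Abce1, also listed for the 2-5A pathway, had 22.4, 10.2 and 17.1 FPKM in tumors 1, 2 and 3. Pde12, which degrades 2-5A, had 3.76, 2.55 and 3.10 FPKM. Akap7, which carries a domain of the same activity, had 0.454, 0.133 and 0.154 FPKM. All 3 were highest in tumor 1, as were 50.6% of the 11190 genes with a mean of at least 1 FPKM (39.0 to 70.9% under the other scalings), a filter that Akap7 did not pass, so that nothing is read from this count.

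The same list holds sensors of nucleic acids and their partners. Of its 14 genes with a mean of at least 1 FPKM, 7 were highest in tumor 2 (6 or 7 under the other scalings) and 6 in tumor 1 (6 or 7), beside 33.7% and 50.6% of the 11190 genes. Eif2ak2, the kinase PKR that halts translation, had 5.67, 15.6 and 5.32 FPKM. Ifih1 (MDA5) had 3.44, 9.77 and 5.62 FPKM, and Dhx58 (LGP2) 5.56, 32.2 and 9.30. Ddx58 (RIG-I) had 13.6, 23.1 and 14.9 FPKM. The editing enzyme Adar had 16.8, 24.8 and 17.2 FPKM. Zbp1, a sensor of Z-form nucleic acid, had 42.0, 144.0 and 52.1 FPKM, and Mavs, the adaptor of RIG-I and MDA5, 6.15, 7.79 and 7.02. These 7 had their highest level in tumor 2, except that Mavs was highest in tumor 1 under the CD3 scaling. Tlr3 (1.88, 1.62 and 0.832 FPKM), Tlr9 (1.82, 1.08 and 1.12), Tmem173 (43.5, 25.1 and 30.0) and Mb21d1 (6.18, 4.89 and 3.87) were highest in tumor 1, and Tlr7 (1.51, 4.67 and 5.28) in tumor 3.

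The interferons that induce OAS genes were at the edge of detection. Of 21 interferon genes, 11 had no read in any tumor. A read was found for 2, 9 and 1 of the 21 in tumors 1, 2 and 3. Of all genes, 42.3%, 45.9% and 48.3% had no read in these tumors. The 13 Ifna genes together had 35 reads in tumor 2 and none in tumors 1 and 3. Ifna4 contributed 13 of them (1.22 FPKM), Ifna2 9 (0.460 FPKM), Ifna1 8 (0.740 FPKM) and Ifna5 3 (0.277 FPKM). A gene of 1 kilobase without a read could still have up to 0.0976, 0.158 and 0.144 FPKM in tumors 1, 2 and 3. Ifnb1 had 2 reads, Ifnl2 5 (0.375 FPKM) and Ifnl3 3 (0.272 FPKM), all in tumor 2, and Ifnab had 5 reads in tumor 1. Reads of type I interferon genes were therefore mostly in tumor 2, 37 of 42. Stretches shared between interferon genes were not sought, and reads that match several of them may have been left out. These low counts could therefore be too low in any tumor. Ifng, the type II interferon, differed from the OAS genes, with 8.49 FPKM in tumor 1 (338 reads), 1.10 in tumor 2 and 1.12 in tumor 3.

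Among 19 interferon signaling genes with a mean of at least 1 FPKM, 12 were highest in tumor 2 (11 to 14 under the other scalings), compared with 33.7% of the 11190 genes. Of the factors that bind the ISRE, Stat2 had 12.5, 31.3 and 8.11 FPKM and Irf9 13.4, 19.3 and 16.4. Irf7, itself an interferon target, had 16.8, 131.7 and 36.7 FPKM and followed the order of the OAS genes, and Irf1 had 50.4, 76.5 and 57.0 FPKM. Of the 3 most abundant receptor genes, Ifngr1 (64.1, 181.8 and 72.3 FPKM) and Ifnar2 (19.1, 42.1 and 25.2) were highest in tumor 2, and Il10rb had 24.5, 27.5 and 29.7. Of the kinase genes, Jak1 had 64.3, 116.7 and 127.5 FPKM, Jak2 17.9, 27.8 and 17.2 and Tyk2 12.0, 13.0 and 7.64. Of the inhibitors, Usp18 (7.05, 81.5 and 30.4 FPKM) followed the OAS genes, Socs1 had 39.3, 54.0 and 14.0, and Socs3 was lowest in tumor 2 (14.3, against 47.8 in tumor 3 and more in tumor 1).

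Most other interferon-stimulated genes had their highest level in the same tumor as the OAS genes. Of 29 listed genes with a mean of at least 1 FPKM, 27 were highest in tumor 2 (23 to 27 under the other scalings), compared with 33.7% of the 11190 genes. Zbp1 and Usp18, already counted above among the sensors and the signaling genes, are also among these 27. Of these 29, 13 were at least 2-fold above both other tumors, compared with 5.54%. The most abundant were Ifi27l2a with 144.7, 769.5 and 444.2 FPKM, Bst2 with 53.4, 458.7 and 138.3, and Psmb8 with 124.4, 166.3 and 145.3. Gbp2 (140.0, 58.7 and 29.0 FPKM) and Gbp3 (47.8, 23.6 and 12.4), named after their values were seen, were the 2 exceptions. Both had their highest level in tumor 1, as did 50.6% of the 11190 genes. The median log2 ratio of tumor 2 to tumor 1 was 1.33 over the 30 genes of the list that were found, below the 2.00 of the OAS genes, and that of tumor 2 to tumor 3 was 1.01. The ISRE core occurred in 13 of the 24 promoters at hand for this list and in 2 of 17 for the signaling genes, beside 4 of 6 for the OAS genes.

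**Figure D4:**
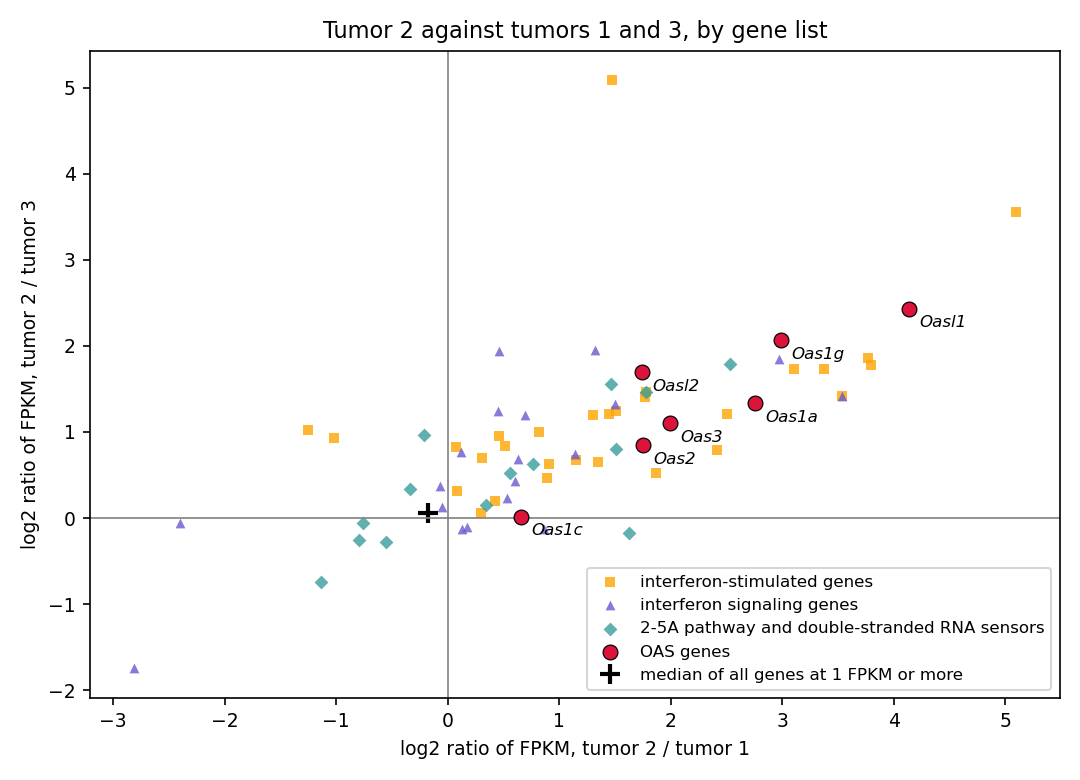
Log2 ratio of FPKM in tumor 2 to tumor 1 (horizontal) and to tumor 3 (vertical) for OAS genes (red), interferon-stimulated genes (squares), interferon signaling genes (triangles) and genes of the 2-5A pathway and sensors of nucleic acids (diamonds) with a mean of at least 1 FPKM. OAS genes lie right of and above the median of all genes (cross, at -0.18 and 0.06), with the exception that Oas1c is level with tumor 3.

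The genes with the pattern most like that of the OAS genes were sought over the 3 tumors. The measure was the largest difference, in any tumor, between a gene's centered log2 FPKM and the median of the 7 OAS genes. The closest of 11183 other genes were Sipa1l2 (0.690, 2.95 and 1.35 FPKM), Foxj1 (0.496, 2.25 and 0.973), Tjp3 (0.920, 4.10 and 1.85), Edaradd (0.625, 2.47 and 1.10) and Gm38979 (2.66, 11.9 and 4.69). Foxj1 and Edaradd reached the required mean of 1 FPKM only through tumor 2, the tumor in which the pattern sought is high. Over only 3 tumors, 300 genes (2.68%) were within 0.5 on the log2 scale, 58 (0.519%) within 0.25 and 4 (0.0358%) within 0.1. With genes from a mean of 0.2 FPKM on, 1 of the 5 genes named was still among the closest 5, and with a pseudocount of 1 FPKM none was. Of the 29 interferon-stimulated genes, 9 were within 0.5, and the closest, Ifit1, was at 0.28 and rank 73. Among the OAS genes themselves, the distance from their median ran from 0.11 for Oas3 to 0.92 for Oas1c and 1.04 for Oasl1.

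Tumors were sequenced in bulk, so more cells of a type and more OAS RNA per cell cannot be told apart. Of 12 lists of cell type markers, 3 had a summed level in the order of the OAS genes, of which the NK cell list left it under the CD3 scaling. The counts of markers highest in tumor 2 stand beside 33.7% of the 11190 genes (21.4 to 37.2% under the other scalings). Some lists also hold genes below the mean of 1 FPKM used for that share. The macrophage and monocyte list (8 genes) had 278.4, 841.2 and 368.0 FPKM in tumors 1, 2 and 3, set by its most abundant gene Ly6c2 (9.65, 749.8 and 334.5). Without Ly6c2 the sums were 268.8, 91.4 and 33.5. Of the 8 genes, 6 were highest in tumor 1, not in tumor 2, compared with 50.6% of the 11190 genes (39.0 to 70.9% under the other scalings). The plasmacytoid dendritic cell list (6 genes, 3 highest in tumor 2) had 60.7, 489.6 and 142.1 FPKM, set by Bst2, which is also counted above as an interferon target. Without Bst2 the sums were 7.28, 30.9 and 3.81, highest in tumor 2 through Klk1 (1.27, 17.4 and 0.536) and Il3ra (2.02, 13.1 and 1.57). The other 3 genes, Siglech (2.52, 0.187 and 0.655), Tcf4 and Ccr9, were highest in tumor 1, beside 50.6% of the 11190 genes. The NK cell list (4 genes, 2 highest in tumor 2) had 57.9, 109.9 and 73.7 FPKM, with Klrd1 as its most abundant gene (37.2, 64.5 and 25.2). Klrd1 and Eomes had means of 42.3 and 34.8 FPKM, compared with 3.15 for Klrb1c and 0.237 for Ncr1. The level of Ncr1 peaked in tumor 1, and that of Eomes in tumor 3. Without Klrd1 the sums were 20.7, 45.4 and 48.5, highest in tumor 3 but in tumor 2 under rescaling. Which cells held the RNA of Ly6c2, Klrd1 and Eomes was not tested, and neither was the part of these cell types in the OAS levels.

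Markers of pancreas and stroma were also highest in tumor 2. All 8 pancreatic acinar genes were, compared with 33.7% of the 11190 genes. Their sums were 87.0, 440.3 and 0.657 FPKM, with Ctrb1 as the most abundant (33.9, 197.7 and 0.0494). Of 5 fibroblast and stroma genes 4 were highest in tumor 2, with sums of 10.1, 41.0 and 0.345 FPKM and Col1a1 as the most abundant (1.63, 15.5 and 0.315). The part of pancreas and stroma in the OAS levels of tumor 2 was not tested. The T cell list (12 genes, 6 highest in tumor 2) had 1645, 1495 and 1811 FPKM, lowest in tumor 2 but lowest in tumor 1 under median-of-ratios scaling, with Cd8b1 as the most abundant gene (434.7, 166.0 and 443.4). Without Cd8b1 the sums were 1210.4, 1329 and 1368, lowest in tumor 1 but in tumor 3 under rescaling and in tumor 2 under the CD3 scaling. The B cell list was lowest in tumor 2 (62.1, 50.2 and 117.5 FPKM; Cd79a 23.1, 7.31 and 49.0), but without Cd79a (38.9, 42.9 and 68.5) it was lowest in tumor 1, except under the CD3 scaling. The plasma cell list (863.0, 199.5 and 217.9; Jchain 814.2, 185.1 and 178.6) and the neutrophil list (39.1, 1.67 and 16.3; S100a9 22.6, 1.01 and 10.4), in which Elane had no read in any tumor, were lowest in tumor 2 with and without their most abundant gene. The erythroid list was highest in tumor 1 (161.6, 30.2 and 4.69; Hba-a1 92.3, 19.6 and 1.90), also without Hba-a1. The conventional dendritic cell list (6 genes, 3 highest in tumor 2) had 8.67, 7.09 and 3.71 FPKM, highest in tumor 1, with Itgax as the most abundant gene (3.18, 1.47 and 0.762). Without Itgax the sums were 5.49, 5.62 and 2.94, highest in tumor 2 but in tumor 1 under rescaling and the CD3 scaling. The endothelium list had 13.5, 12.7 and 5.08 FPKM, highest in tumor 1 but in tumor 2 under median-of-ratios scaling, with Pecam1 as the most abundant gene (12.2, 10.9 and 4.86), and without it the sums were 1.29, 1.77 and 0.222, highest in tumor 2.

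**Figure D5:**
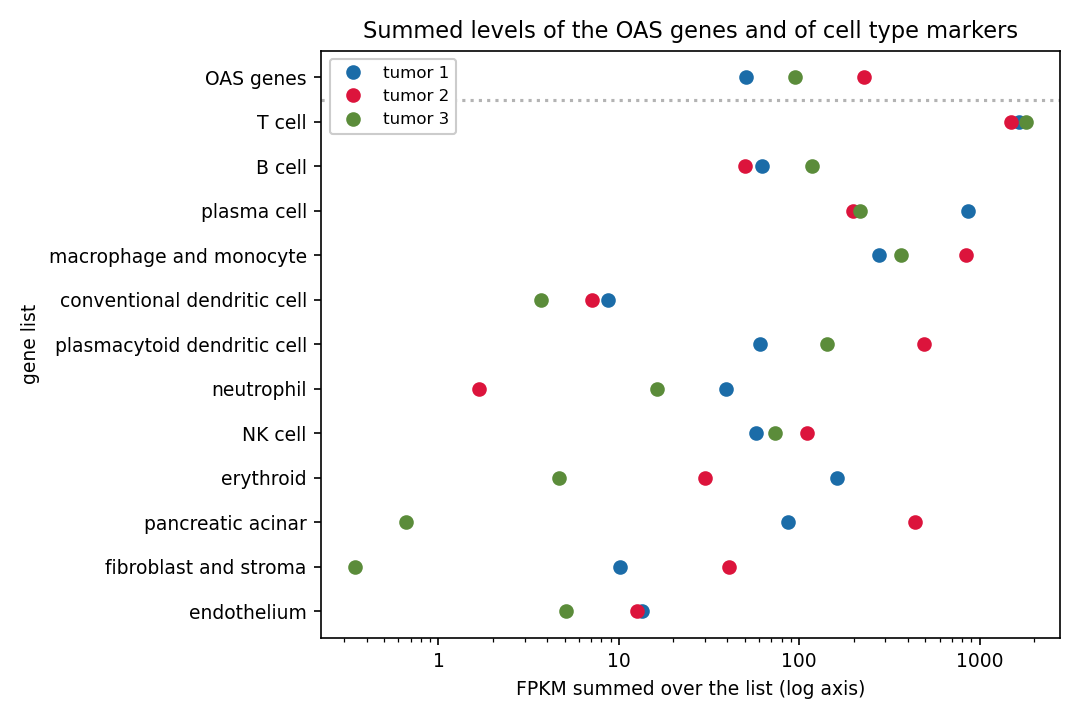
FPKM summed over the 7 OAS genes and over each of 12 lists of cell type markers (log axis), with a point for each tumor. The OAS genes sum to 50.5, 229.2 and 95.2 FPKM in tumors 1, 2 and 3, and the T cell list differs least between tumors.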

How the data were processed

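RNA was sequenced from 3 Dnmt3b+/- PTCL (paired-end, 150 bp). Per the authors, STAR aligned the reads to mm10 after trimming, and SeqMonk quantified those with a mapping quality of 50 or more; the deposited values are linear FPKM for each tumor. WGBS (3 samples) was not used here. The members and lists were chosen with earlier results of these data known. In the table, a gene with no read carries a value worth 0.9 read, which gave the depth of each library with GENCODE M21 exon lengths (99.6% of genes). Reads were whole for 92.2%, 92.2% and 92.3% of genes (within 0.01 read or a relative 1e-05). Intervals are exact Poisson (levels) and exact binomial (ratios); the limit of a count of 0 is 3 reads. Where a symbol repeated, the gene with the highest mean was used. Named genes are the members, Dnmt3b, the pathway list, paralogs, interferons above 0.2 FPKM in any tumor, the 3 most abundant genes of each signaling class and of the interferon-stimulated genes, Stat2, Irf7, Irf9, Usp18, the most abundant gene of each marker list with markers without a read, and the 5 genes of closest pattern; others were named after their values were seen. Of the planned lists, 2 genes are not reported here and were left out of all counts. Alternatives were other scalings, a pseudocount, other filters and thresholds, another distance, and each tumor left out. Steps were tested on simulated data. Python 3.11, pandas 2.3.3, NumPy 2.4.6, SciPy 1.17.1, Biopython 1.88 and matplotlib 3.10.9 were used.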

Additional observations from a re-analysis of the deposited data

How the results depend on the processing

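No paired analysis was possible because there was 1 group of tumors and no test. The median log2 ratio of tumor 2 to tumor 1 over the OAS genes, 2.00 in the deposited FPKM, was 1.86 with each tumor rescaled to sum to 1000000, 2.15 with median-of-ratios factors, 1.60 with division by the CD3 genes and 1.93 with a pseudocount of 1 FPKM. The scalings shifted the median of all genes for that ratio by -0.13, 0.16 and -0.39, and a scaling moves the OAS median by the same amount. Scaling by the CD3 genes was chosen after seeing the data. The median for tumor 2 to tumor 3 was 1.30 to 1.45. Rescaling to 1000000 changed the unit, and with it the means, to 177.2 for Oas3, 138.9 for Oas1a, 106.2 for Oas2, 63.4 for Oas1g, 56.7 for Oasl2, 29.7 for Oasl1 and 28.3 for Oas1c. The count of OAS genes at least 2-fold above the next tumor, 5, was 3 with a threshold of 3-fold, 6 with 1.5-fold, and 2 to 6 with each tumor left out. The count highest in tumor 2, 7, was 6 with median-of-ratios factors (Oas1c) and 7 under the other scalings, the pseudocount and the filters. The count above 1 FPKM in every tumor, 6, was 4 at a threshold of 5 FPKM and 7 at 0.2 FPKM, under rescaling, under division by the CD3 genes and without tumor 1 (Oasl1). For the counts 2-fold above the next tumor and above 1 FPKM, no share of all genes was taken at the alternative settings. Those counts are therefore not compared with other genes. Oasl1 rested on 68 reads in tumor 1, and 3 tumors leave the spread of each gene poorly known.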
